A study of Mus musculus with 10 samples.

Results

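CKO zygotes were compared with wild-type (WT) zygotes by reduced representation bisulfite sequencing, an assay that reads CpG-rich fragments cut by the enzyme MspI. CKO is the labels' name for embryos of the genotype maternal Tet3 KO. Both groups came from eggs of superovulated females aged 7 to 10 weeks, fertilised in vitro by sperm of CAST/EiJ males, and their strain is given as C57BL/6J x CAST/EiJ. They were collected 13 h after fertilisation, with 40 to 50 pooled zygotes in a library and 2 biological duplicates per genotype. The promoter or Cre line behind the knockout is not given in the sources used here. Of the 10 libraries of the series, these 4 carry the comparison. The 2 sperm libraries (WT, CAST/EiJ) served to class genomic regions, and the 4 blastocyst libraries (WT and CKO, 96 h, 4 embryos each) were read beside them. The regions were 100-base tiles of the 19 autosomes with at least 10 methylation counts in each of the 4 zygote libraries, whatever their coverage in blastocysts. This gave 15791 tiles of the 183899 that had any count in the series.

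Tet3 encodes a dioxygenase stored in the egg that oxidises 5-methylcytosine to 5-hydroxymethylcytosine and further forms. In the fertilised egg it acts mainly on the chromosomes brought by the sperm, which are highly methylated outside CpG islands and lose methylation before the first division. Known routes of that loss include oxidation by Tet3 and dilution when DNA is copied without maintenance. Bisulfite converts neither 5-methylcytosine nor 5-hydroxymethylcytosine. The levels here are therefore the sum of both marks, and a base oxidised to the hydroxymethyl form still counts as methylated. The comparison asks how the level of the zygote differs when the egg supplies no Tet3.

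The zygote libraries held 1233982 to 1508297 counts, of which 610765 to 769762 lay in the tiles. The median tile had 28 to 36 counts per library. Counts are summed over neighbouring cytosines that one read can cover, so they are not numbers of reads, and limits derived from them cover counting error only. As a check of what the files hold, imprinting control windows were read. These windows were written from general knowledge of mm9 and could not be checked against an annotation of that build. In 7 of the 11 maternally methylated windows listed, with counts in zygotes and without Snrpn, 1 of 697 counts was methylated in WT and 1 of 752 in CKO zygotes. Mest, among the 7, had counts in WT replicate 2 only (33) and adds nothing to the CKO value. In sperm, 25 of 213 counts were methylated at Grb10 and 9 of 57 at Zrsr1. The other maternally methylated windows covered in sperm had at most 1 methylated sperm count. At Snrpn the methylated counts were 26 of 117 (replicate 1) and 12 of 48 (replicate 2) for WT, beside 37 of 124 and 12 of 100 for CKO zygotes. The paternally methylated H19/Igf2 window had 16 of 16 counts methylated in WT replicate 1, none covered in WT replicate 2, and 22 of 22 and 38 of 38 in CKO zygotes. At Dlk1-Gtl2, also paternally methylated, 176 of 178 counts were methylated in WT and 176 of 195 in CKO zygotes. Whether the reads were sorted by parental allele is not given in the sources used here. Apart from Snrpn, the maternally methylated windows with counts thus read near 0 in zygotes of both genotypes. The paternally methylated windows with counts read between 90.3% and 100%. Whether the levels below stand for the whole zygote or for 1 parental genome was not tested.

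CKO zygotes were more methylated than WT zygotes where sperm DNA had been methylated, and differed from them by less than 1 point where it had not. Tiles with a mean sperm level of at least 80% are called sperm-methylated here, those at 20% or less sperm-unmethylated and the rest intermediate, each with at least 10 counts in both sperm libraries. In the 4627 sperm-methylated tiles, sperm stood at 96.3% in either library. The WT zygote libraries averaged 58.6% and 59.0%, and the CKO zygote libraries 70.3% and 70.0%. Both CKO values lay above both WT values, and the replicates of a genotype were within 1 point of each other. The difference of means was 11.3 points (70.2% ± 0.175 against 58.8% ± 0.285, SD, n = 2 each; SD of the difference 0.335). WT zygotes thus stood 37.5 points below sperm and CKO zygotes 26.2 points below it, so that the CKO shortfall was 69.7% of the WT one.

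In the 2118 intermediate tiles, which averaged 52.5% in sperm, WT libraries stood at 32.7% and 32.4% and both CKO libraries at 39.7%. The difference was 7.19 points (SD of the difference 0.229). In the 8667 sperm-unmethylated tiles, WT libraries stood at 2.51% and 2.40% and CKO libraries at 2.84% and 2.75%. That difference was 0.339 points (SD 0.0985), larger than the spread between replicates but a small fraction of the other values. CpG islands are largely unmethylated in sperm. The median tile of this class was at 0 in both genotypes, and 5630 of the tiles had the same mean in both. The 379 tiles with too few sperm counts differed by 8.41 points (SD 1.94), and all 15791 tiles by 4.68 points (SD 0.0667). In each of these sets both CKO libraries lay above both WT libraries. The exact two-sided permutation p was 0.333 for each, the smallest that 2 libraries against 2 can give. The excess of CKO in sperm-methylated tiles exceeded that in sperm-unmethylated tiles by 11.01 points (SD 0.380), again at the smallest exact permutation p of 0.333.

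**Figure D1:**
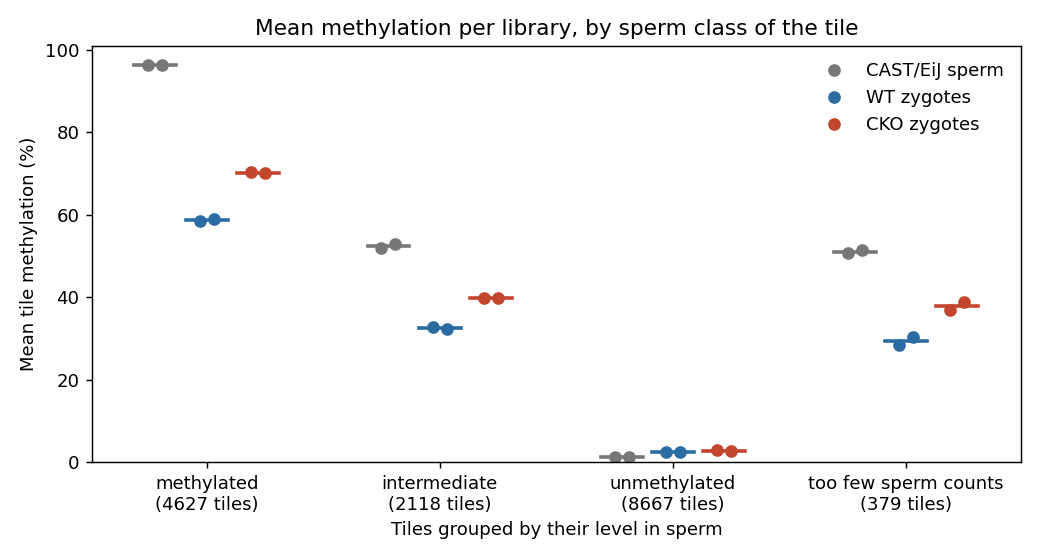
Mean tile methylation in percent for each sperm and zygote library (points), with a short line at the mean of each group and tiles grouped by their sperm level. CKO zygotes lie above WT zygotes in sperm-methylated tiles (70.2% against 58.8%) and in intermediate tiles, and both lie near the axis in sperm-unmethylated tiles (2.79% against 2.45%).

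The difference grew with the sperm level of the tile. It was 0.138 points (SD of the difference 0.119) in the 5449 tiles with no methylated sperm count and 0.464 points (SD 0.233) in tiles at 2 to 5% in sperm. It reached 2.67 points (SD 0.420) at 10 to 20%, 5.05 points (SD 0.335) at 20 to 40% and 6.67 points (SD 1.09) at 40 to 60%. Up to this level each step up in sperm methylation went with a larger gap between the genotypes. Beyond it the gap was 9.16 points (SD 0.829) at 60 to 80% and 9.24 points (SD 1.10) at 80 to 90%. At 90 to 95% it was 11.7 points (SD 0.893), at 95 to under 100% it was 11.6 points (SD 0.597), and in the 987 tiles fully methylated in sperm it was 11.01 points (SD 1.14). The last 3 values do not differ beyond their spread.

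Set against the sperm level, the gap was 18.2% of it in tiles at 10 to 20% in sperm and 11.01% of it in fully methylated tiles. The CKO shortfall from sperm was 50.3% of the WT shortfall at 10 to 20%, 64.8% at 40 to 60% and 72.4% at 100%. Below a sperm level of 5%, zygotes of both genotypes were above sperm, so no shortfall can be given there. Sperm levels of these bins rest on counting and tiles near a bin edge can fall on either side of it.

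**Figure D2:**
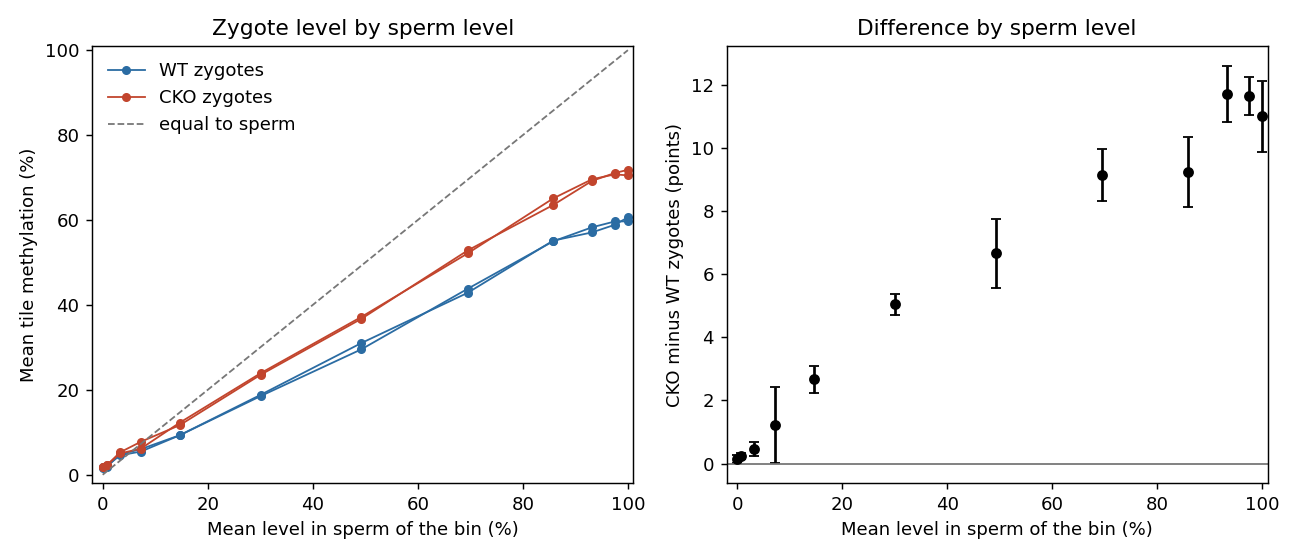
Left, mean tile methylation in percent of each zygote library against the mean sperm level of 12 bins, with a dashed line where zygotes would equal sperm. Right, CKO minus WT zygotes in points for the same bins, with bars showing the SD of the difference (n = 2 each); the gap runs from 0.138 points at a sperm level of 0 to 11.7 points at 90 to 95%.

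Within sperm-methylated tiles grouped at 1, 2, 3, 4 to 5 and 6 or more CpGs, the gap lay between 10.2 and 12.3 points. A CpG was counted as 1 covered position, or as 2 positions 1 base apart, which are both strands of 1 CpG. In sperm-methylated tiles CKO exceeded WT by 10.2 points (SD of the difference 0.592) at 1 CpG, 12.3 points (SD 0.731) at 2, 12.1 points (SD 0.895) at 3 and 11.3 points (SD 2.61) at 4 to 5. With 6 or more CpGs the gap was 10.6 points, but only 40 tiles were left and the SD of the difference was 7.23. Split further, the gap was 9.66 points at 6 to 7 CpGs (34 tiles, SD 10.5) and 15.6 points at 8 or more (6 tiles, SD 11.4). WT libraries in those 40 tiles had an SD of 7.22, against 0.265 for CKO. CpG-dense sperm-methylated tiles are therefore too few here to place the gap within several points.

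Each library's level at 4 or more CpGs minus its level at 1 CpG was tested. This contrast was 0.118 and 3.11 points in WT and 3.42 and 1.80 points in CKO zygotes. The genotypes overlapped, with a difference of 0.991 points (SD 2.41, exact two-sided permutation p = 0.667). Its sign turned without WT replicate 1, to -0.506 points, and with counts pooled over tiles, to -0.0524 points. With a coverage minimum of 20 it was 2.41 points, and with 200-base tiles 2.44 points. The CpG counts between 1 and 4 were not tested. At 1 CpG the WT libraries had 58.7% and 59.5% and the CKO libraries 69.5% and 69.2%. At 3 CpGs they had 59.3% and 60.5%, and 71.8% and 72.3%, so that the CKO libraries were further above their level at 1 CpG than the WT libraries were. In intermediate tiles the same difference was 1.54 points (SD 1.98, exact permutation p = 0.667), and in sperm-unmethylated tiles it was -0.218 points (SD 0.0468), where CKO exceeded WT by 0.425 points at 1 CpG and 0.207 points at 4 or more.

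Over all tiles without regard to sperm, the gap fell with CpG count, from 7.18 points (SD 0.256) at 1 CpG to 5.12 points (SD 0.349) at 3 and 0.362 points (SD 0.208) at 6 or more. Of the 2646 tiles with 6 or more CpGs, 2551 were sperm-unmethylated, against 887 of the 3144 tiles with 1 CpG. The mean sperm level moved with it, from 64.7% at 1 CpG to 2.37% at 6 or more.

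**Figure D3:**
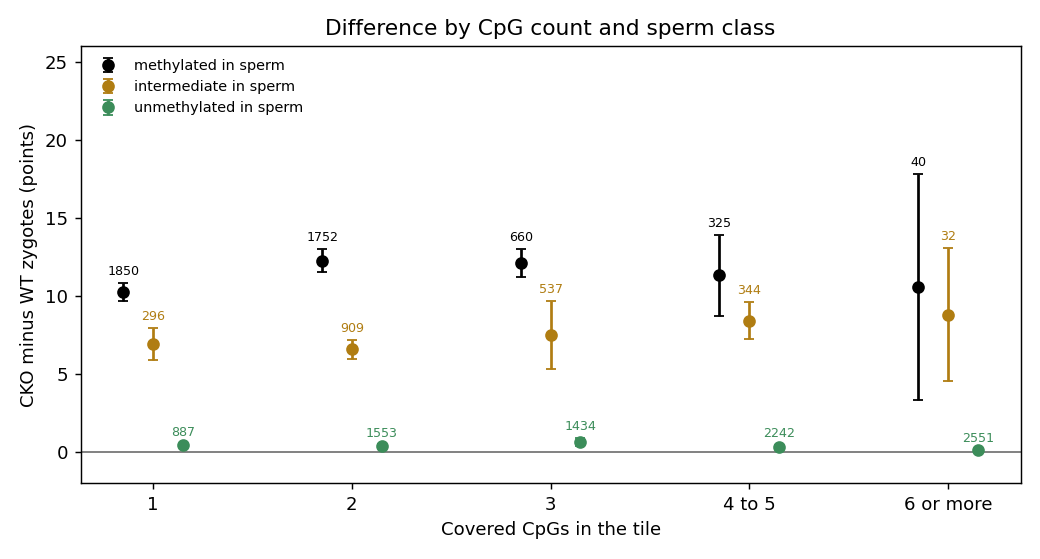
CKO minus WT zygotes in points by the number of covered CpGs in a tile, for the 3 sperm classes; bars show the SD of the difference (n = 2 each) and small figures the number of tiles. Within sperm-methylated tiles the plotted gaps lie between 10.2 and 12.3 points, with a wide bar at 6 or more CpGs, where the gap is not placed within several points.

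The higher mean in CKO came with fewer tiles at low levels as well as more tiles at high levels. Of the sperm-methylated tiles, 12.7% and 12.6% stood at 20% or less in the WT libraries, against 3.70% and 5.49% in the CKO libraries. Tiles with no methylated count at all made up 6.66% and 6.27% in WT and 1.34% and 2.44% in CKO zygotes. In this group the WT share was 3.42 times the CKO share. At the other end, 28.2% and 29.0% of tiles stood at 80% or more in WT, against 41.4% and 42.6% in CKO zygotes. The share between these limits was 59.1% and 58.4% in WT and 54.9% and 51.9% in CKO zygotes. Each of these shares kept the genotypes apart, and the two-sided exact permutation test again gave its smallest p, 0.333.

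The share of fully methylated tiles was 15.3% and 14.7% in WT and 17.5% and 20.9% in CKO zygotes, a difference of 4.18 points (SD 2.41). A level of 0% or 100% is reached easily with few counts. In the 222 sperm-methylated tiles with at least 40 counts in each zygote library, 21.2% and 25.2% of tiles were at 80% or more in WT and 41.0% and 36.5% in CKO zygotes. At 20% or less there were 4.95% and 5.41% in WT, and 0% and 3.15% in CKO zygotes. Both shares kept the genotypes apart in the same direction among these tiles. The share of fully methylated tiles did not: it was 6.31% in both WT libraries and 7.21% and 6.31% in CKO zygotes (exact two-sided permutation p = 1).

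**Figure D4:**
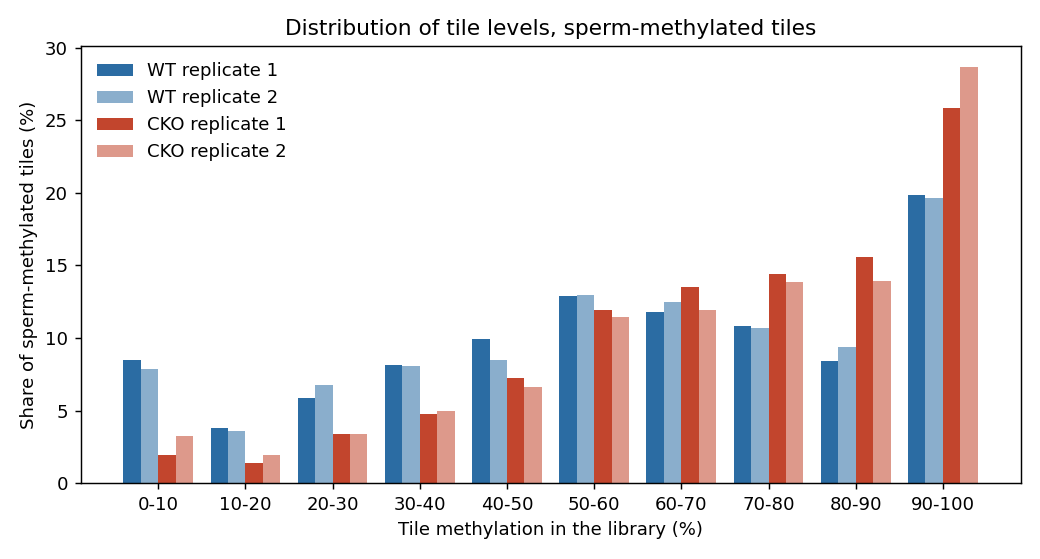
Share in percent of the 4627 sperm-methylated tiles (bars, 1 per library) in 10-point steps of tile methylation. Both CKO libraries hold fewer tiles than both WT libraries in every step up to 60%, and more in the steps above 70%.

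Single tiles varied widely between replicates, far more than the class means did. In sperm-methylated tiles, WT replicate 1 minus WT replicate 2 had an SD over tiles of 37.9 points and a mean of -0.403 points. The same SD for CKO was 32.7 points, with a mean of 0.248 points. Counting error alone would give SDs of 11.5 and 10.8 points. The replicates differed by at least 40 points in 29.4% of tiles in WT and 21.8% in CKO zygotes. With at least 40 counts in each library, the SDs were still 27.9 and 24.3 points. Levels of the same tiles correlated weakly between libraries, with Pearson's r of 0.193 between the WT replicates and 0.161 between the CKO replicates over 4627 tiles. Between genotypes r was 0.141 to 0.175, a range that includes the value between the CKO replicates. These correlations describe tiles, which share libraries and are not independent samples.

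CKO was above WT at each level of coverage, with a gap that was not the same at all of them. In sperm-methylated tiles whose least covered zygote library had 10 to 11 counts, just inside the limit of 10, CKO exceeded WT by 11.3 points (SD 0.364). Just outside it, at 8 to 9 counts, the gap was 13.2 points (SD 0.686). At 15 to 24 counts it was 11.5 points (SD 1.05) and at 40 or more counts 10.1 points (222 tiles, SD 1.69). In the 16 of these with 80 or more counts it was 5.78 points (SD 3.24).

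Tiles low in a WT library were mostly not low in the other libraries. Sperm-methylated tiles at 20% or less in WT replicate 1 (586 tiles, mean 6.11%) averaged 52.4% in WT replicate 2 and 64.6% and 67.4% in the CKO libraries. Those above 80% in WT replicate 1 (1268 tiles, mean 94.7%) averaged 67.7% in WT replicate 2 and 76.4% and 76.5% in the CKO libraries. Across the 5 steps of WT replicate 1, CKO exceeded WT replicate 2 by 8.76 to 14.8 points. With the roles of the WT replicates exchanged, the excess was 9.31 to 15.2 points. CKO was therefore above the WT library not used for sorting in each of the 10 steps.

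No single tile passed the test between the genotypes. The edgeR quasi-likelihood F-test called 0 of 15791 tiles (0%) at an adjusted p below 0.05. At an unadjusted p below 0.05 there were 513 tiles (3.25%), 433 higher and 80 lower in CKO zygotes. That share is smaller than the threshold of 0.05. However, 5844 of the 15791 tiles had the same mean in both genotypes, 5630 of them sperm-unmethylated. The share over all tiles therefore cannot say whether tiles differ. Of the 513, 302 higher and 35 lower were among the 4627 sperm-methylated tiles (together 7.28% of them). Among the 8667 sperm-unmethylated tiles there were 38 higher and 28 lower (together 0.762%). limma called 0 tiles, with 992 at an unadjusted p below 0.05, and the edgeR likelihood ratio test called 8 (6 higher, 2 lower).

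By simple separation, both CKO libraries lay above both WT libraries in 2111 of all 15791 tiles (13.4%) and below them in 711 (4.5%). Among sperm-methylated tiles the counts were 1277 above and 372 below, or 27.6% and 8.04%. Among intermediate tiles the shares were 25.1% and 8.55%, and among sperm-unmethylated tiles, many of which are at 0 in all 4 libraries, 2.80% and 1.62%.

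The tiles with the smallest p in either direction are given as candidates only, since none passed. They were taken from tiles with at least 20 counts in each zygote library, a difference of at least 20 points and no overlap between genotypes, which 486 tiles met with CKO higher and 131 with CKO lower. No tile was assigned to a gene here, because no annotation of mm9 was used. Of the 10 higher in CKO, 9 were sperm-methylated, and of the 10 lower, 4 were, beside 29.3% of all tiles. Tiles at 0 in all zygote libraries cannot meet the rule, so the rule itself shifts these counts.

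On chromosome 6 at 93658101 to 93658200 (4 CpGs, 97.7% and 100% in sperm), the WT libraries had 21.2% and 0% and both CKO libraries 100%. The 0% rests on 20 counts, which allow up to 15%. The difference was 89.4 points (log2 odds ratio 10.32 ± 2.48, SE; edgeR adjusted p = 0.429). WT was low and CKO fully methylated, as in sperm. On chromosome 1 at 182619601 to 182619700 (2 CpGs, 100% in both sperm libraries), WT had 0% of 22 and 0% of 20 counts, allowing up to 13.6% and 15%, and CKO 68.8% and 100%. On chromosome 9 at 15353501 to 15353600, WT had 27.3% and 23.1% and both CKO libraries 100%. In these 3 tiles both WT libraries were far below sperm, while 5 of the 6 CKO values were at 100%.

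On chromosome 6 at 117081101 to 117081200, WT had 34.3% and 9.62% and CKO 93.8% and 100%, from 98.2% and 89.4% in sperm. This tile was also covered in blastocysts, with 38.2% and 23.3% in WT and 70.0% and 55.3% in CKO. A tile on chromosome 1 at 192919201 to 192919300 had 4.55% and 13.3% in WT and 68.8% and 69.4% in CKO zygotes. In blastocysts it had 22.2% and 3.33% in WT and 0% and 25.9% in CKO, which overlap. One of the 10 was not sperm-methylated, on chromosome 12 at 107211901 to 107212000, with 18.4% and 4.76% in sperm, 0% in both WT libraries and 65.0% and 57.6% in CKO zygotes (edgeR adjusted p = 0.429). There the CKO level lay far above sperm, and in blastocysts the order was turned, with 55.8% and 54.3% in WT and 7.50% and 0% in CKO. Of the 10 tiles, 4 were covered in all blastocyst libraries, and 3 of these had a higher CKO mean there, with 13.0% against 12.8% in the tile at 192919201.

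Among the tiles lower in CKO, chromosome 14 at 61366301 to 61366400 (100% in both sperm libraries) had 97.2% and 100% in WT and 54.5% and 0% in CKO zygotes, a difference of -71.3 points (edgeR adjusted p = 0.779). Its CKO replicates thus stood far apart. On chromosome 13 at 46861801 to 46861900, WT had 100% and 86.4% and CKO 27.3% and 35.0%. Of the 10 tiles, 4 were sperm-unmethylated, as were 54.9% of all tiles, and had methylated counts in WT zygotes. At chromosome 10, positions 8606401 to 8606500, sperm had 0%, WT zygotes 54.5% and 46.2% and CKO zygotes 0% of 81 and 0% of 59 counts, allowing up to 3.70% and 5.08%. At chromosome 5, positions 147396401 to 147396500, a CpG-dense tile of 15 CpGs had 0% and 0.746% in sperm, 34.7% and 12.4% in WT and 0% in both CKO libraries. It had 0% in all 4 blastocyst libraries. Of the 10 tiles lower in CKO, 5 were covered in all blastocyst libraries, and 3 of these had a lower CKO mean there. The adjusted p of the 10 tiles lower in CKO ran from 0.746 to 1 (edgeR).

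Summing neighbouring tiles gave a test with more counts per unit. Sperm-methylated tiles were summed over 5-Mb windows with at least 100 counts in each zygote library, which gave 318 windows with a median of 11 tiles. CKO zygotes were above WT in 289 windows and below in 29, with a median difference of 10.2 points and a range of -19.7 to 37.1. Both CKO libraries lay above both WT libraries in 185 windows (58.2%) and below them in 7 (2.2%). The edgeR quasi-likelihood F-test called 51 windows higher in CKO (16%) and 0 lower (0%), with 107 higher and 0 lower at an unadjusted p below 0.05. The 51 lay on all 19 autosomes, and their differences ran from 12.4 to 37.1 points.

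This count depended on the test and the libraries. limma called 0 windows, with 74 higher and 1 lower at an unadjusted p below 0.05. Without WT replicate 1 the edgeR count was 18, without CKO replicate 1 it was 7 and without CKO replicate 2 it was 11. Each of these fits sets 1 library against 2, so the lone library is assumed to vary as the other genotype does. Of the 51 windows, 2 passed whichever library was left out, under that assumption. The first was on chromosome 11 at 100000001 to 105000000 (43 tiles), with 50.9% and 56.9% in WT and 74.5% and 76.7% in CKO zygotes, a difference of 21.7 points (edgeR adjusted p = 0.00045). The second was on chromosome 5 at 65000001 to 70000000 (17 tiles), with 49.5% and 52.9% in WT and 79.1% and 82.4% in CKO zygotes, a difference of 29.6 points (edgeR adjusted p = 0.00045). limma gave these windows adjusted p-values of 0.160 and 0.0594. The lowest window, on chromosome 2 at 50000001 to 55000000 (6 tiles), had 79.4% and 63.9% in WT and 48.6% and 55.3% in CKO zygotes (edgeR adjusted p = 0.156).

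**Figure D5:**
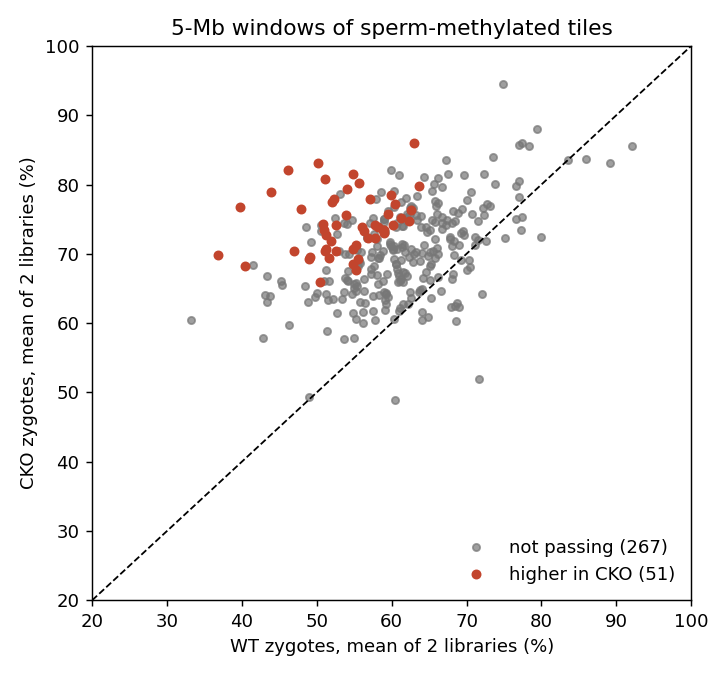
Methylation in percent of sperm-methylated tiles summed over 5-Mb windows, WT zygotes on the x axis and CKO zygotes on the y axis (each the mean of 2 libraries); the dashed line marks equality. Of 318 windows 289 lie above the line, and the 51 that passed the edgeR test (red) lie 12.4 to 37.1 points above it.

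The difference was spread over the genome. On each of the 19 autosomes both CKO libraries lay above both WT libraries in sperm-methylated tiles. The smallest gap was on chromosome 13, with 59.5% and 62.5% in WT and 65.8% and 68.0% in CKO zygotes, a difference of 5.94 points (SD 2.66). The largest was on chromosome 18, with 56.4% and 55.7% in WT and 74.8% and 67.4% in CKO zygotes, a difference of 15.0 points (SD 5.23). The CKO replicates of chromosome 18 stood apart, so its place at the top of the order is not fixed within their spread. By distance from the chromosome start, which in the mouse is the centromere end, the gap lay between 9.79 and 12.1 points in all 7 steps of up to 200 Mb.

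The gap was also read by nearness to DNA that sperm leaves unmethylated. Sperm-methylated tiles within 0.5 kb of a sperm-unmethylated tile had 61.9% in WT and 72.0% in CKO zygotes, a difference of 10.2 points (102 tiles, SD 3.70). Those at 2 to 10 kb differed by 12.5 points (564 tiles, SD 0.614), and those over 50 kb away by 10.5 points (2169 tiles, SD 0.796). The first of these values overlaps the others within its spread.

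The same tiles were read in the blastocyst libraries. Of the sperm-methylated tiles, 1932 had at least 10 counts in each blastocyst library. In these the genotypes differed by 11.5 points in zygotes and by 9.03 points in blastocysts, where WT stood at 27.0% ± 0.994 and CKO at 36.1% ± 0.381 (SD, n = 2 each). Tiles in which CKO zygotes were at least 20 points below WT zygotes still had higher CKO blastocysts, by 6.50 points (179 tiles). The blastocyst difference was 7.42 points where CKO zygotes were up to 20 points below WT (442 tiles) and 8.07 points where they were up to 20 points above (643 tiles). It was 11.4 points at 20 to 40 points above (419 tiles) and 12.2 points at over 40 points above (249 tiles). The mean blastocyst difference thus rose with each step of the zygote difference, with replicate SDs of up to 2.82 points in the end steps. In the lowest step WT blastocysts stood at 28.2% ± 0.819 and CKO blastocysts at 34.7% ± 2.80 (SD). In the highest step WT blastocysts stood at 21.1% ± 2.82 and CKO blastocysts at 33.4% ± 0.738. The spread between replicates of single tiles, given above, enters these steps, and no test was made over tiles. Over the 1932 tiles the zygote and blastocyst differences had a correlation of only 0.0739. Over the 314 summed windows with enough blastocyst counts it was 0.0204. Windows that passed the edgeR test in zygotes had a median blastocyst difference of 9.24 points, beside 8.33 points in the rest. For single tiles and windows, the zygote difference thus said little about the blastocyst difference.

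Tiles methylated in embryos and not in sperm were few. Chosen on sperm and blastocysts alone (20% or less in sperm, mean of at least 20% in blastocysts), 68 tiles had 30.4% and 31.1% in WT and 34.6% and 32.5% in CKO zygotes. The difference was 2.83 points (SD 1.60, exact two-sided permutation p = 0.333). In the 9 of them at 50% or more in blastocysts, WT zygotes had 59.7% and 61.6% and CKO zygotes 63.5% and 77.9%, with CKO replicates too far apart to place the difference of 10.1 points (SD 10.3).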

How the data were processed

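Each table the authors deposited lists cytosines with a methylation percent and 2 counts, of methylated and of unmethylated calls. The deposited percent equalled the value recomputed from the counts within 0.001 points at 100% of positions of every library. Bismark 0.10.1, Trim Galore and the build mm9 are named per the submitters' processing notes, and no settings are given in the sources used here. The labels call the libraries biological duplicates.

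Only the counts were analysed, with Python 3.11.15. They were summed over 100-base autosomal tiles (positions counted from 1), and a tile's level is its methylated share. Class values are means over tiles per library, compared by exact permutation. The SD of a difference is the root of the summed variances of both groups. Tiles and windows were each fitted in 1 table with edgeR 4.0.16 under R 4.3.3. Both kinds of count entered its quasi-likelihood F-test, every library had its own depth term, the negative binomial dispersion was 0, and p-values were adjusted by Benjamini-Hochberg. The median quasi-dispersion was 8.94 in tiles, so the variance between libraries was about that many times the binomial variance. The test was also run on simulated tile and window counts. limma 3.58.1 was run on log2 ratios with a pseudocount of 1.

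Named tiles are those past an adjusted p of 0.05, then the 10 with the smallest p per direction among tiles with at least 20 counts per library, no overlap between genotypes and 20 points of difference, spaced by over 1000 bases. The tile rule, classes and windows were chosen with earlier results of these data known. Mitochondrial positions, planned as a check of bisulfite conversion, were not analysed here. Whether the same replicate numbers pair the libraries cannot be told here. Deviations of same-numbered libraries had a correlation of 0.0104 over tiles. The spread of single tiles dominates that value, and a correlation does not register a shift common to all tiles.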

Additional observations from a re-analysis of the deposited data

How the results depend on the processing

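Under every alternative run, the mean difference between CKO and WT zygotes kept its direction in the 3 sperm classes and over all tiles, and so did the contrast of sperm-methylated with sperm-unmethylated tiles. The alternatives were coverage minimums of 5 and 20, 50-base and 200-base tiles, single positions, counts pooled over tiles, other sperm classes and each library left out, not all run for each result. In sperm-methylated tiles the difference ran from 10.6 to 12.2 points, in intermediate tiles from 6.81 to 8.71, in sperm-unmethylated tiles from 0.234 to 0.464 and over all tiles from 3.19 to 5.78. With the replicate block the difference in sperm-methylated tiles is by construction the same 11.3 points. The CpG count contrast in sperm-methylated tiles turned its sign with counts pooled over tiles (-0.0524 points) and with covered positions in place of CpGs (-1.63 points, 25 tiles), and ran from -0.506 to 2.49 points with a library left out. For tiles, 0 passed in 12 of 14 alternatives, among them the replicate block and each library left out, while the edgeR likelihood ratio test called 8 and Fisher's exact test, run on summed replicates and so blind to their spread, 3336. For windows, the edgeR count of 51 became 0 with limma, 0 with the replicate block, 5 with 2-Mb windows and 99 with a tile minimum of 5, and ran from 7 to 38 with a library left out. A dispersion common to all windows gave 34 and 10-Mb windows 55. The cause of these changes was not tested. None of the 20 named tiles passed in any of their 6 alternatives, at adjusted p-values of 0.714 to 1 (edgeR and limma). The median tile had 32 counts per library, summed over cytosines that reads share. In sperm-methylated tiles the SD between replicates was 37.9 points in WT and 32.7 in CKO. Counting error with every count taken as independent, a low estimate, gives 11.5 and 10.8.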

Other observations

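On the X chromosome, outside the autosomal comparison, 77 tiles had at least 10 counts in each zygote library. In the 17 that were methylated in sperm, WT zygotes had 64.4% and 63.2% and CKO zygotes 68.3% and 69.4%. The difference of 5.06 points (SD of the difference 1.21, exact two-sided permutation p = 0.333, the smallest possible) was larger than the spread between replicates. In the 10 X-linked tiles intermediate in sperm, WT had 37.3% and 25.7% and CKO 30.3% and 37.3%, which overlap. In the 43 X-linked tiles unmethylated in sperm, WT had 4.25% and 2.25% and CKO 6.54% and 3.13%, which also overlap.

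Adjoining sperm-methylated tiles were alike in the genotype difference and in the difference between replicates. Over 323 pairs of adjoining tiles, CKO minus WT had a Pearson's r of 0.441, and WT replicate 1 minus replicate 2 had one of 0.482 over the same pairs. Adjoining tiles can be covered by the same fragments. At 0.5 to 2 kb (62 pairs) the values were 0.0495 and -0.112, and at 2 to 10 kb (239 pairs) 0.106 and -0.176. At 10 to 100 kb (1906 pairs) the values were -0.0170 and 0.0254. These are descriptions across tiles, and no test was made.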
